A study of Mus musculus with 2 samples.

Results

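Wnt pathway genes were examined in a genome-wide map of CpG methylation of the mouse epiblast. The set held 47 genes chosen by symbol, out of 21631 protein-coding genes on the autosomes and the X: 19 Wnt ligands, 12 receptors and co-receptors, 9 secreted antagonists, 4 R-spondins and 3 targets of the pathway. All 47 lie on autosomes, so the background throughout is the 20665 autosomal protein-coding genes. Whole-genome bisulfite sequencing had been applied to a single group of 2 samples, both wild type, XX and of strain C57Bl6/J, at embryonic day 6.5. The embryos were obtained by natural mating and were not kept in culture, and the epiblast had been separated from extraembryonic tissue by hand. The labels name no treated or mutant group, so the comparisons are between genes and between regions of 1 genome map. The counts came as 1 table without a column per sample, so no value has a replicate error and no test between groups was run.

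Wnt proteins are secreted, lipid-modified ligands that bind Frizzled receptors. Together with the co-receptors Lrp5 and Lrp6 they stabilize beta-catenin, which then acts with Tcf and Lef factors on target genes, and some ligands signal through Frizzled receptors without beta-catenin. Dickkopf proteins block the co-receptors, secreted Frizzled-related proteins bind the ligands, and R-spondins keep Frizzled receptors at the cell surface. In the epiblast around the start of gastrulation, Wnt3 is needed to form the primitive streak, and antagonists from the adjoining visceral endoderm limit the signal to the posterior side. CpG-rich promoters are usually free of DNA methylation whether or not their gene is transcribed, whereas most other CpGs of the epiblast are methylated.

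Of 20383623 autosomal CpGs, 89.9% had a read, the median depth was 6 reads, and 66.3% of 133245671 read counts were methylated. Known epiblast genes had low promoters at Utf1 (2.88%), Fgf5 (3.30%), Dnmt3b (5.69%) and Otx2 (13.3%), and the intervals of Pou5f1 (17.99%) and Lin28b reached 20%. Elf5, whose promoter is methylated in the epiblast lineage and free of methylation in trophoblast, was at 83.8%, and the germ line genes Dazl, Sycp1 and Ddx4 were at 65.6%, 55.8% and 21.8%. Other extraembryonic genes varied, with Gata4 at 84.1%, Ttr at 70.3%, Prl3d1 at 64.0%, Gcm1 at 57.5%, Apoa1 at 57.0% and Hand1 at only 17.5%. The starts of Hand1, Gata4 and Ttr were placed at the end of the gene with more CpGs. A level is the methylated share of all read counts in a region, and values in parentheses after a level are exact Clopper-Pearson 95% intervals. These cover counting error only and take each count as independent, although 1 read can cover several CpGs, so they can be too narrow. An intermediate level cannot tell apart a mixture of methylated and unmethylated cells from a mixture of alleles or of CpGs within the region.

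The promoters of the Wnt pathway genes were nearly all unmethylated. A promoter here runs from 500 bp before to 500 bp after the start. It was called low when its whole interval lay under 20%, high when it lay over 60%, intermediate when it lay between these values, and unresolved otherwise. Of the 47 promoters, 42 (89.4%) were low, 3 intermediate, 1 high and 1 unresolved. Of 18362 measured autosomal promoters, 64.7% were low, 4.66% intermediate, 15.4% high and 15.2% unresolved. Member promoters had a median of 863 read counts, from 48 in Rspo2 to 2030 in Fzd9. The median was 5.75%, compared with 8.29% for all genes. CpG content differed from the background as well, since 39 members (83.0%) were CpG-rich, with at least 40 CpGs in the window, compared with 53.8% of all genes. All 39 of these were low, which was near the background of 97.2% for 11074 CpG-rich genes. Their median of 5.13% lay within the interquartile range of that class, 3.79% to 7.64% around 5.40%, and 19 of the 39 lay above the class median. Of the 5 members with 20 to 39 CpGs, 3 were low (background 38.7%), and of the 3 members with fewer than 20 CpGs, 0 were low (background 0.993%).

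At single CpGs the pattern was the same. In the promoters of members, 3224 CpGs had at least 5 reads, and 1844 of them (57.2%) had no methylated read. Only 42 were methylated in at least 50% of their reads, and 33 of these lay in the windows of Wnt8a, Wnt8b, Dkk3, Dkk4 and Rspo2. The other 9 were spread over 3153 CpGs of the remaining 42 members.

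The letters of 4 promoters show what these levels refer to. Each is the stretch of 250 bases before the start, 5′ to 3′ on the coding strand, from RefSeq on GRCm38.p6, with CpG dinucleotides in capitals. Wnt16 and Wnt8b are shown because they have like numbers of CpGs in their windows (27 and 21) and unlike levels. Fzd10 is shown as a CpG-rich receptor promoter and Axin2 as the promoter of a target gene.
Wnt16: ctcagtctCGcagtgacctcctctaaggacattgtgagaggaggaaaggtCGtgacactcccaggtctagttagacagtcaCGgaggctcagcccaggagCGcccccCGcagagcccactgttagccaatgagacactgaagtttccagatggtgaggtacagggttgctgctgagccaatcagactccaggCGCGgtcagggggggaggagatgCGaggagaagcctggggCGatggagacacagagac
Wnt8b: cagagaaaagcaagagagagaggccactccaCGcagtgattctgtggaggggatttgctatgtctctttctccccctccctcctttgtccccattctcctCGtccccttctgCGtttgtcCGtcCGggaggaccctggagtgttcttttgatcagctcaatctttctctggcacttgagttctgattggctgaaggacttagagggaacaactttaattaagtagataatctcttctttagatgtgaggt
Fzd10: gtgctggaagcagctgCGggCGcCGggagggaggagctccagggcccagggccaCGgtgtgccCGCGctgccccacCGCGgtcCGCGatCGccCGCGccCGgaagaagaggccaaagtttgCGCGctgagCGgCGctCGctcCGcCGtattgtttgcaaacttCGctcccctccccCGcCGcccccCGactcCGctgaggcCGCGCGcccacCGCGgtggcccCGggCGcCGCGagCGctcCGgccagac
Axin2: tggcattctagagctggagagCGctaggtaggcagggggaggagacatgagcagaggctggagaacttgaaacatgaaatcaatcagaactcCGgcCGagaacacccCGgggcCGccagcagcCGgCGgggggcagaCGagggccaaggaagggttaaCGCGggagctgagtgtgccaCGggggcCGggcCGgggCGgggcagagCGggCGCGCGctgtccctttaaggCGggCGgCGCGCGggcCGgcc
The Wnt16 stretch (chr6:22287977-22288226) held 9 CpGs with 8 of 98 read counts methylated, a level of 8.16% (3.59% to 15.5%). The Wnt8b stretch (chr19:44493222-44493471) held 5 CpGs with 35 of 45 methylated, a level of 77.8% (62.9% to 88.8%), and none of its CpGs lacked a methylated read. The intervals of these 2 stretches do not overlap. In Fzd10 (chr5:128600856-128601105) the stretch held 37 CpGs, 28 of them without a methylated read, and the level was 2.05% (0.942% to 3.86%). In Axin2 (chr11:108920099-108920348) 24 CpGs were at 13.3% (7.93% to 20.4%), and 9 of them had no methylated read.

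**Figure D1:**
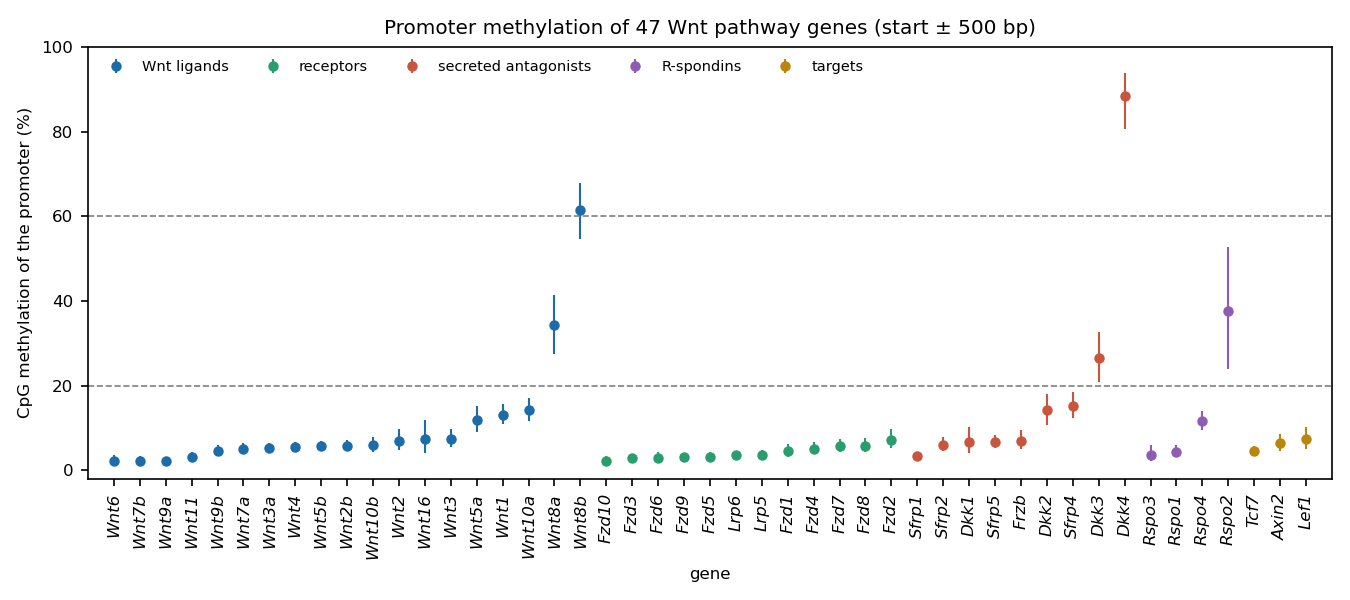
Methylation level (percent) of the promoter of each of the 47 genes, ordered by role and level, with bars for exact 95% intervals and dashed lines at 20% and 60%. Apart from Wnt8a, Wnt8b, Dkk3, Dkk4 and Rspo2, all genes lie under 20%, from 2.17% (Wnt6) to 15.3% (Sfrp4).

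Among the ligands, 17 of 19 promoters were low, with a median of 5.75%. Wnt6 was the lowest of all members at 2.17% (1.22% to 3.56%), with 15 of 690 read counts methylated (chr1:74771392-74772392). Wnt7b, a ligand of lung and placenta, was at 2.20% (1.39% to 3.32%; chr15:85581321-85582321), and Wnt9a, a ligand of joint formation, was at 2.26% (1.60% to 3.08%); the intervals of these 3 overlap. Wnt3, the ligand needed for the primitive streak, was at 7.37% (5.45% to 9.71%; chr11:103773675-103774675), and Wnt3a, which acts in the formation of the trunk and tail, was at 5.13% (4.03% to 6.43%; chr11:59290251-59291251). The intervals of Wnt3 and Wnt3a overlap. Higher within the low range were Wnt10a (14.2%, 11.7% to 17.0%), which acts in tooth and hair development, Wnt1 (13.1%, 10.8% to 15.6%), which acts at the border of midbrain and hindbrain, and Wnt5a (11.8%, 8.93% to 15.2%), a ligand of axis and limb outgrowth. The intervals of these 3 lie above those of Wnt6, Wnt7b and Wnt9a. The other 9 low ligands (Wnt2, Wnt2b, Wnt4, Wnt5b, Wnt7a, Wnt9b, Wnt10b, Wnt11 and Wnt16) lay between 3.21% for Wnt11 and 7.29% for Wnt16.

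The 2 ligands outside the low group belong to the same subfamily. Wnt8b, a ligand of the forebrain, was unresolved at 61.4% (54.7% to 67.9%), with 137 of 223 read counts methylated (chr19:44492972-44493972). It was at 58.3% (47.1% to 69.0%) before the start and 63.3% (54.7% to 71.3%) after it, with overlapping intervals. Wnt8a, which acts in patterning of the hindbrain and posterior body, was intermediate at 34.2% (27.5% to 41.4%), with 66 of 193 read counts methylated over 19 CpGs (chr18:34541827-34542827). Its start was not annotated in the promoter table, so the end of the gene with more CpGs was taken, and the window at the other end was at 34.7%. Both windows have few CpGs, and promoters of this CpG content were low in 38.7% (20 to 39 CpGs, as in Wnt8b) and 0.993% (fewer than 20, as in Wnt8a) of all genes.

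All 12 receptor promoters were low, and all 12 were CpG-rich. Their median of 3.59% was the lowest of the 5 roles, and their range ran from 2.24% to 7.23%. Fzd10 was lowest at 2.24% (1.47% to 3.26%), with 26 of 1163 read counts methylated (chr5:128600606-128601606), and Fzd2 was highest at 7.23% (5.22% to 9.72%). The intervals of these 2 Frizzled genes do not overlap. The co-receptor genes Lrp6, at 3.53% (2.70% to 4.53%), and Lrp5, at 3.65% (2.76% to 4.74%), did not differ beyond their intervals. Fzd3 (2.83%) and Fzd6 (2.98%), which act in planar cell polarity, and Fzd5 and Fzd9 (3.10% each) came before Fzd1 (4.49%), Fzd4 (5.12%), Fzd7 (5.67%) and Fzd8 (5.79%), and neighbours in this order had overlapping intervals.

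The secreted antagonists had the widest spread, from 3.30% to 88.5%, and 7 of 9 were low. Dkk4 was the only high promoter among the 47, at 88.5% (80.7% to 93.9%), with 92 of 104 read counts methylated over 14 CpGs (chr8:22627518-22628518). Dkk3, a divergent Dickkopf, was intermediate at 26.4% (20.8% to 32.6%), with 61 of 231 read counts methylated (chr7:112158982-112159982). Its window was uneven, at 56.2% (41.2% to 70.5%) before the start and 18.6% (13.2% to 24.98%) after it. Neither start was annotated in the promoter table. The other gene ends were at 60.8% (46.1% to 74.2%, unresolved) in Dkk4 and 82.4% (71.2% to 90.5%, high) in Dkk3. In Dkk4 the 2 ends differed little in CpG number, with 14 and 11. Dkk1, the antagonist needed for head formation, was low at 6.59% (3.95% to 10.2%; chr19:30548996-30549996), although its window held only 33 CpGs, and Dkk2 was low at 14.1% (10.7% to 18.1%). At the ends taken, the 4 Dickkopf genes covered nearly the whole scale, and the intervals of Dkk1, Dkk2, Dkk3 and Dkk4 do not overlap in this order. At the other ends, the intervals of Dkk3 and Dkk4 overlap. The secreted Frizzled-related proteins were all low, with Sfrp1 at 3.30% (2.47% to 4.31%), Sfrp2 at 6.01%, Sfrp5 at 6.68%, Frzb at 7.01% and Sfrp4 highest at 15.3% (12.4% to 18.5%). Under a stricter definition of low (under 10%), and with 1 CpG kept per 100 bp, 4 antagonists were low.

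Of the R-spondin genes, Rspo3 (3.70%, 2.17% to 5.86%), Rspo1 (4.36%, 3.10% to 5.93%) and Rspo4 (11.6%, 9.42% to 14.04%) were low. Rspo2, an R-spondin of limb and lung, was intermediate at 37.5% (23.95% to 52.6%), but its window held only 8 CpGs and 48 read counts (chr15:43171094-43172094), so its interval is the widest of the members. Next to the window, the stretch from 500 to 2000 bp past the start, with 93 CpGs, was at 9.11% (7.52% to 10.9%). The start of Rspo2 was taken as the gene end with more CpGs, and the other end had only 2 CpGs. All 3 targets were low, with Tcf7 at 4.51% (3.50% to 5.70%), Axin2 at 6.31% (4.51% to 8.56%) and Lef1 at 7.26% (4.99% to 10.1%). Axin2, which encodes a feedback inhibitor of the pathway, was at 14.7% (10.02% to 20.6%) in the 500 bp before its start and 2.43% (1.17% to 4.42%) after it. Wnt5a (23.6% and 4.71%) and Wnt5b (15.8% and 1.96%) had the same order, and Wnt3 had the reverse, 3.38% before and 15.2% after.

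The low levels of many members reached well beyond the promoter. Shores, the stretches from 500 to 2000 bp from the start on both sides, were low in 22 of 47 members (46.8%), compared with 14.2% of 19847 autosomal genes. Among CpG-rich members 20 of 39 were low (51.3%; background 21.5%), and their median was 17.2% against 34.1%. These shores also held more CpGs, with a median of 86 in CpG-rich members and 50 in all CpG-rich genes. Among genes with at least 80 CpGs in the shores, 18 of 26 members were low (69.2%), slightly under the background of 75.6%. With 50 to 79 CpGs 1 of 6 was low (background 17.5%), and with fewer than 50 CpGs 1 of 7 (background 1.65%). The share of low shores thus exceeded the background over all CpG-rich genes, and in the group that holds most members, genes with many shore CpGs, it did not. With 1 CpG kept per 100 bp, a setting added with the values in view, 8 members in all were low, and among CpG-rich members 7 of 38 (18.4%; background 5.40%). Upstream shores alone were low in 13 members.

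The lowest shores were those of Fzd8 (5.51%, 4.61% to 6.51%), Wnt7b (6.09%, 5.03% to 7.31%) and Fzd7 (6.29%, 5.32% to 7.38%), with 181, 168 and 173 CpGs. Their intervals overlap. At the other end, the shores of Dkk4 (83.3%, 78.2% to 87.6%), Rspo4 (78.7%, 73.1% to 83.6%) and Wnt8b (65.2%, 59.5% to 70.6%) were at or above the autosomal level of 66.3%, given the intervals. Rspo4 had a sharp border, with its promoter at 11.6% and both of its shores at 78.7%. Receptors had low shores in 8 of 12 genes, ligands in 7 of 19, antagonists in 3 of 9, R-spondins in 2 of 4 and targets in 2 of 3. The background was 14.2% over all genes and 75.6% over CpG-rich genes with at least 80 shore CpGs. Shore CpGs differed by role, with medians of 109 in receptors, 83 in ligands, 73 in antagonists, 62 in R-spondins and 151 in targets. A difference by role apart from CpG number was not tested. In most members the downstream shore was the lower one, in 30 of 46 with both sides measured, and in 24 of 38 CpG-rich members (63.2%; background 70.5%). With intervals that did not overlap, it was lower in 20 of 38 (background 51.5%) and higher in 6 of 38 (background 16.6%). Axin2 (66.1% upstream, 4.996% downstream) and Wnt5a (58.7% and 6.20%) had the common order with a large step. Wnt2, a ligand of lung and blood vessels, had the reverse (20.1% and 79.01%), and so had Tcf7 (19.9% and 62.98%).

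**Figure D2:**
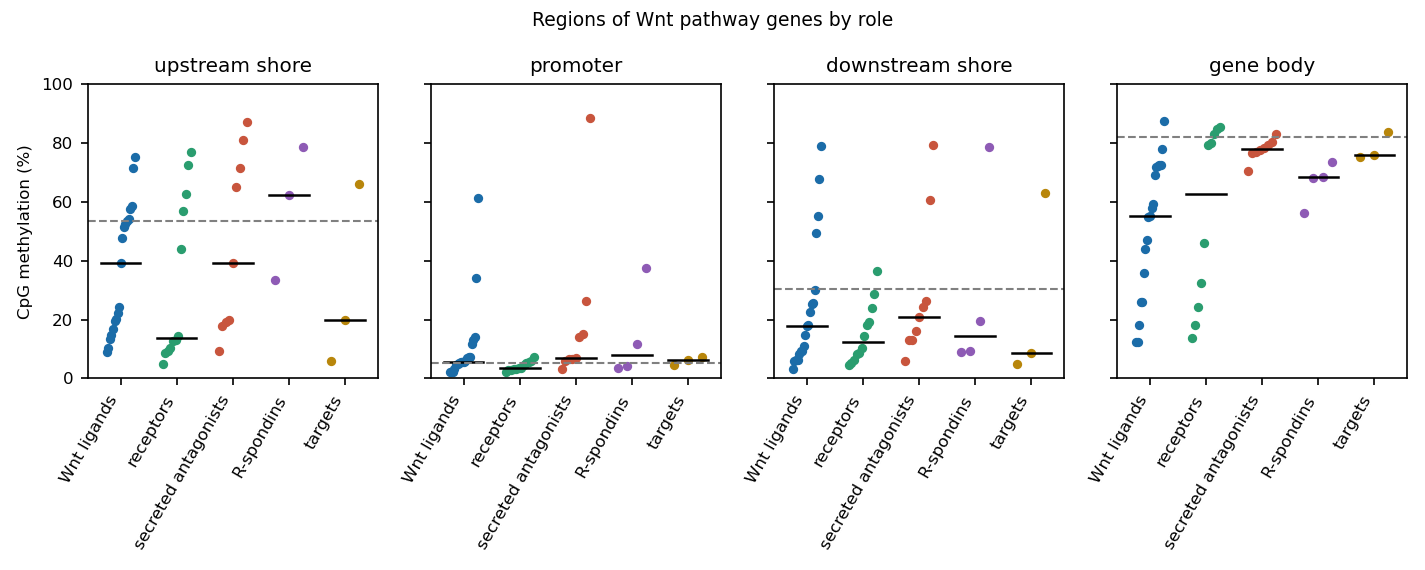
Methylation level (percent) of the upstream shore, promoter, downstream shore and gene body, with 1 point per gene, a black bar for the median of each role and a dashed line for the median of all CpG-rich autosomal genes. Receptor promoters sit lowest (median 3.59%), and the gene bodies of ligands spread from 12.2% to 87.7%.

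The unmethylated stretch around each start was measured as the run of 200 bp bins under 20%, within 10 kb on either side. CpG-rich members had a median stretch of 2000 bp, against 1400 bp for CpG-rich genes, and 23 of 39 (59.0%) had at least 2000 bp (background 21.9%). Within genes with at least 80 shore CpGs these shares were 20 of 26 (76.9%) and 65.5%. The median depends on the threshold: with bins under 10% it was 800 bp over the 47 members, and the difference between the 2 medians of CpG-rich genes was 0 bp. Fzd7 had the longest stretch, 4200 bp, followed by Wnt7b with 3600 bp and Fzd5, Fzd8 and Fzd10 with 3400 bp each. In Fzd10 most of it lay before the start (2400 bp), and in Fzd7 most lay after it (2800 bp). Wnt8b, Dkk3, Dkk4 and Rspo2 had no such bin at the start.

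In bins of 500 bp, the medians of members and of all CpG-rich genes met at the start and parted on both sides of it. In the bin centred 250 bp past the start the median was 4.62% for 39 CpG-rich members and 4.66% for all CpG-rich genes. At 1750 bp past the start it was 29.7% for members, 20.6% for ligands and 72.5% for all. At 1250 bp before the start it was 23.2% and 65.0%. At 4750 bp before the start members (78.1%) and background (75.6%) were close, but the neighbouring bin and the other side were not. At 4250 bp before the start the medians were 64.4% for members and 75.6% for all. At 4750 bp past it they were 69.7% and 81.25%. These curves were not matched for CpG number, and the shores of CpG-rich members held more CpGs (median 86, against 50 for all CpG-rich genes).

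**Figure D3:**
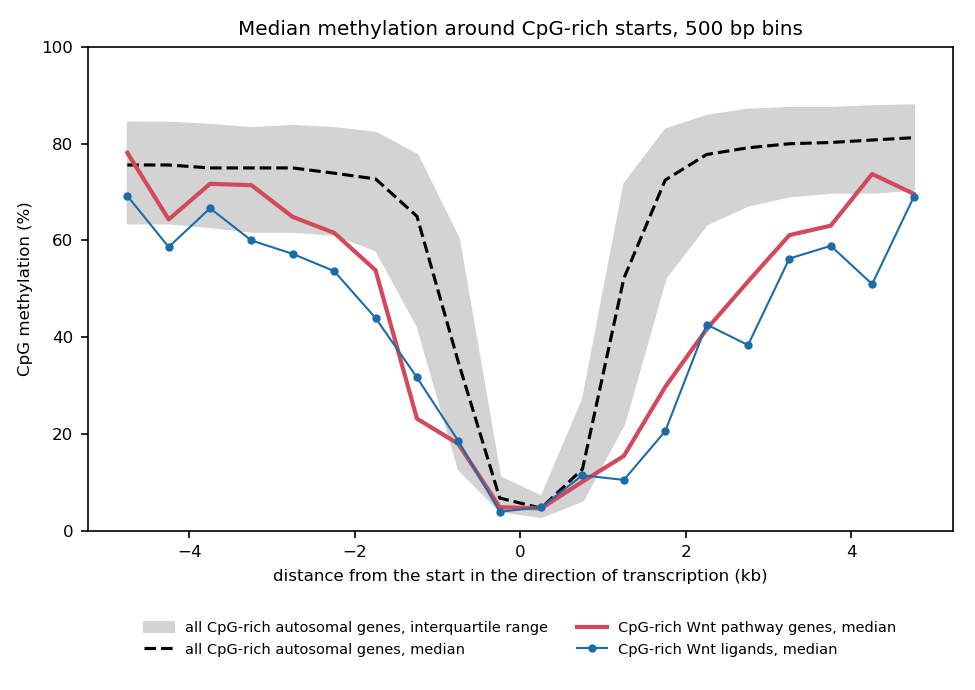
Median methylation level (percent) in 500 bp bins from 5 kb before to 5 kb after the start, for CpG-rich members (red), CpG-rich ligands (blue) and all CpG-rich autosomal genes (dashed, with the interquartile range in grey). The curves meet at the start and are apart at 1750 bp past it, at 29.7% for members and 72.5% for all genes.

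**Figure D4:**
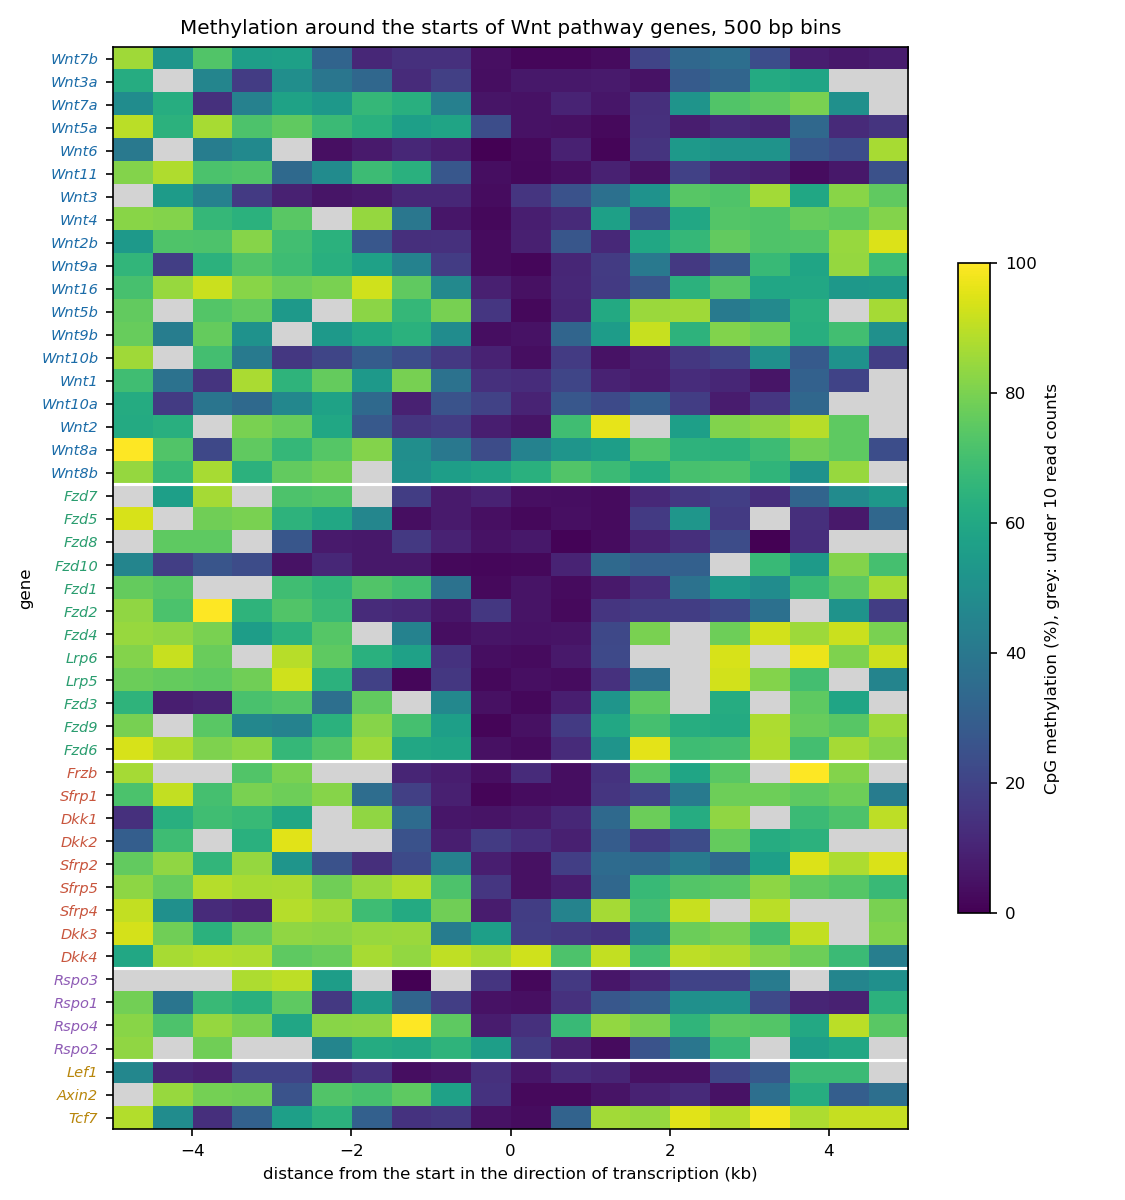
Methylation level (colour, percent) in 500 bp bins within 5 kb of the start for each of the 47 genes, grouped by role and ordered by the length of the unmethylated stretch, with bins of under 10 read counts in grey. Dark bins mark the low stretch, which is longest in Fzd7 (4200 bp) and lacking in Wnt8b, Dkk3, Dkk4 and Rspo2.

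Gene bodies, taken from 2000 bp past the start to the end of the gene, were mostly methylated, as in the rest of the genome, but a group of ligands and Frizzled genes was not. Bodies could be measured in 44 members (not in Fzd9, Fzd10 and Dkk1, which have too few CpGs there). High were 26 of them, 11 were intermediate, 5 unresolved and 2 low, where the background was 87.9% high, 6.55% intermediate, 4.17% unresolved and 1.4% low. The median was 71.2%, compared with 78.5% for all genes. Under 50% were 13 of 44 (29.5%; background 6.23%), namely 8 ligands and 5 receptors, and no antagonist, R-spondin or target. Among CpG-rich members these were 11 of 37 (29.7%; background 5.43%). Body length moved with this count. In bodies under 10 kb 7 of 11 CpG-rich members were under 50% (background 15.0%), from 10 to 25 kb 4 of 9 (background 4.51%), and from 25 kb 0 of 17 (background 1.46%). The 5 receptors under 50% had short measured bodies, from 1.345 kb (Fzd8) to 5.192 kb (Fzd5). Their unmethylated stretches reached from 1800 bp (Fzd5) to 2800 bp (Fzd7) past the start, into these bodies or close to them. With 1 CpG kept per 100 bp, 5 of 31 CpG-rich members were under 50% (16.1%; background 2.44%), and over whole genes, promoters included, 23 of 39 (background 35.2%).

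The 2 low bodies were those of Wnt10a (12.2%, 10.95% to 13.6%, 10.2 kb) and Wnt1 (12.5%, 10.9% to 14.3%, 1.97 kb). In both genes the intervals of body and promoter overlapped. Fzd8 (13.9%, 8.99% to 20.1%) came next, over only 22 CpGs. Wnt10b, a ligand of bone and mammary gland (18.2%), Fzd7 (18.3%), Fzd2 (24.2%), Wnt5a (25.9%), Wnt6 (26.1%) and Fzd5 (32.6%) followed, and Wnt8b (35.7%), Wnt8a (43.97%), Fzd1 (46.1%) and Wnt11 (46.99%) completed the 13. Wnt8b had a body at 35.7% (34.1% to 37.4%), below its promoter at 61.4%. The highest bodies were those of Wnt2b (87.7%, 86.03% to 89.3%) and the long co-receptor genes Lrp5 (85.6%, 84.9% to 86.2%) and Lrp6 (84.7%, 83.8% to 85.6%). All 8 measured antagonist bodies were high, between 70.6% and 83.1%. Body medians were 55.3% for ligands, 62.8% for receptors, 78.1% for antagonists, 68.4% for R-spondins and 76.1% for targets.

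Low CpG-dense regions lay inside the bodies of many ligands. Such regions were found as 500 bp windows with at least 20 CpGs, in steps of 100 bp and merged where they overlapped, which gave 63 regions in 28 members. Of these, 19 were low (30.2%; background 18.5%), 8 intermediate, 30 high and 6 unresolved. CpG number again moved with the level, since 14 of 23 regions with at least 40 CpGs were low (60.9%; background 46.0%) and 5 of 40 smaller ones (12.5%; background 6.36%). At least 1 low region was found in 15 of 44 members (34.1%; background 11.1%), namely 11 of 19 ligands, 1 of 10 receptors, 0 of 8 antagonists, 1 of 4 R-spondins and 2 of 3 targets. All ligands but Wnt2 and Wnt16 had a CpG-dense region. Among antagonists only Sfrp1 and Sfrp2 had one, and among receptors only Fzd1, Fzd5, Fzd6, Fzd7 and Lrp5. A gene without a CpG-dense region could not have a low one, so these shares by role do not compare methylation alone. At 5 kb or more from the start there were low regions in 6 members (13.6%; background 7.69%), all of them ligands: Wnt3, Wnt3a, Wnt5b, Wnt6, Wnt8b and Wnt10a. These counts take distance from the first start, and some regions hold another annotated start of the same gene (Wnt5b, Wnt11 and Lef1) or overlap another gene (Wnt5b and Wnt10a). Other low regions begin at the edge of the measured body (Wnt1, Wnt5a, Fzd7, Axin2 and Lef1) and may continue toward the start. A further count, added with the values in view, left out regions that hold another annotated start or overlap another gene. It kept the other regions at the edge of the body. By this count 12 members had a low region (27.3%; background 6.98%), and 5 had one at 5 kb or more (11.4%; background 4.49%). The latter were the same ligands except Wnt5b.

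In Wnt8b a region of 1300 bp and 83 CpGs, 17.7 kb past the start (chr19:44511173-44512472), was at 6.07% (4.87% to 7.46%). Its promoter, with 21 CpGs, was at 61.4%, so the CpG-dense low region of this gene lay inside it and not at its start. In Wnt3 the region lay 34.9 kb past the start (chr11:103809076-103810975), with 144 CpGs at 6.64% (5.55% to 7.88%). In Wnt3a it lay 25.9 kb past the start (chr11:59263736-59264835) and was at 5.86% (4.43% to 7.58%), and in Wnt6 it lay 11.8 kb past it (chr1:74783693-74784892) at 7.84% (6.45% to 9.42%). In Wnt3 and Wnt3a the intervals of the internal region and of the promoter overlapped, with promoters at 7.37% and 5.13% and whole bodies at 54.98% and 58.05%. In Wnt6 the internal region lay above the promoter (2.17%) with intervals apart. Wnt10a had 3 low regions, at 8.75% (6.17% to 11.96%), 8.96% (6.86% to 11.5%) and 3.61% (2.48% to 5.05%) in order from the start, and the first overlaps the gene Gm32099. In Wnt5b, a region of 2800 bp and 256 CpGs (chr6:119478731-119481530) was at 4.09% (3.48% to 4.76%) and overlaps Fbxl14, a gene within the long Wnt5b gene, and the other one, at 8.49% (5.40% to 12.6%), holds the third annotated start of the gene. Nearer to the start were the low regions of Wnt1, Wnt5a, Wnt7b, Wnt10b and Wnt11, from 4.15% (Wnt11, at the second of its annotated starts) to 10.03% (Wnt1). So were those of the receptor Fzd7 (16.4%), the R-spondin Rspo1 (10.3%) and the targets Axin2 (8.72%) and Lef1 (5.73%, at the third of its annotated starts). The regions of Wnt1, Fzd7, Axin2 and Lef1 and the first of Wnt5a begin 2.001 kb past the start, where the measured body begins. In Fzd7, Wnt5a and Lef1 the unmethylated stretch around the start reached 2800, 2400 and 2600 bp past it, so these regions adjoin it.

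Of the members with more than 1 annotated start, Wnt11 was low at both (3.21% and 3.35% (2.29% to 4.73%)), which lie 3733 bp apart. Wnt5b had 3 starts, at 5.71% for the first, 63 of 105 read counts methylated (49.98% to 69.4%) for the second and 7.69% (4.62% to 11.9%) for the third, so the middle start, with 10 CpGs, differed from both others beyond their intervals. Lef1 was low at its first 3 starts, between 6.63% and 7.31%, and at 42.4% (33.3% to 51.8%) at the fourth start, 45997 bp further on, with 18 CpGs. Its first 2 starts lie only 26 bp apart, so their windows hold nearly the same CpGs. Tcf7 was at 4.51% and 10.1% (8.13% to 12.4%) at 2 starts whose windows overlap. The fourth start of Lef1 and the second of Wnt5b have the fewest CpGs of these windows.

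In 4 places 2 Wnt ligand genes lie next to each other. Wnt9b and Wnt3 stand head to head on chromosome 11 with starts 24.4 kb apart, and the DNA between their promoters was at 42.9% (41.1% to 44.7%). The Wnt9b gene is annotated to extend beyond the start used here and past the start of Wnt3, so this DNA lies inside it. Wnt3a and Wnt9a, also head to head on chromosome 11, had 43.2% (40.8% to 45.5%) between them over starts 16.2 kb apart. Wnt10b and Wnt1, head to head on chromosome 15 with starts 11.7 kb apart, had 41.03% (38.5% to 43.6%). Wnt6 and Wnt10a lie in the same direction on chromosome 1, and between the end of Wnt6 and the promoter of Wnt10a the level was 38.2% (34.01% to 42.5%). All 4 stretches were intermediate and below the autosomal level of 66.3%. They include upstream shores of the paired genes, and upstream shores of all CpG-rich genes had a median of 53.4%. Stretches between other neighbouring genes were not measured. The low DNA was not continuous from 1 start to the next. Between Wnt9b and Wnt3 only 6 of 40 tiles of 500 bp had a level under the threshold for low. There were 3 of 25 such tiles between Wnt3a and Wnt9a, 2 of 18 between Wnt10b and Wnt1 and 1 of 11 between Wnt6 and Wnt10a. These counts use the level alone and not its interval, so the rule used for promoters would give no more low tiles. The promoters of the paired genes were all low, with Wnt9b at 4.48% (3.29% to 5.95%) and Wnt10b at 5.86% (4.31% to 7.76%).

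Tcf and Lef factors bind a core of the letters CTTTGA. On either strand, this core was found in 6 of 38 RefSeq windows of members (15.8%), from 250 bases before to 50 after the start, and in 16.003% of 32851 windows of all genes, so its share in members was near the background. Of 7 windows of the targets Axin2, Lef1 and Tcf7, 1 held it, that of the fourth start of Lef1. A match is a run of letters and not a measured site, and a window without one says only that the letters are not in it.

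Of 66 other genes of the pathway, 55 promoters (83.3%) were low, 1 intermediate, 2 high and 8 unresolved. The median was 5.47%. On autosomes 54 of 63 were low, compared with the background of 64.7%, and of those with a CpG-rich promoter 51 of 52, compared with 97.2%. Lowest were the kinase gene Gsk3a (0.963%, 0.416% to 1.89%), the gene of the Dishevelled adaptor Dvl1 (2.04%, 1.43% to 2.83%) and Shisa2 (2.66%, 1.76% to 3.85%), an inhibitor of Frizzled traffic. High were Axin1, the scaffold of the complex that degrades beta-catenin (76.2%, 70.7% to 81.1%, 21 CpGs), and Nkd1, an inhibitor that binds Dishevelled (71.1%, 62.9% to 78.4%, 15 CpGs). The Axin1 window stands at the CpG-richer end of the gene, since its start was not annotated, and its relative Axin2, measured at its annotated start with 82 CpGs, was at 6.31%. Rnf43, a ubiquitin ligase that removes Frizzled receptors and is itself bound by R-spondins, was intermediate at 28.6% (22.6% to 35.3%). Unresolved were the secreted or surface inhibitors Sost (53.6%), Sostdc1 (66.9%), Cer1 (58.6%) and Dkkl1 (18.5%), the cytoplasmic genes Apc (22.5%) and Csnk1a1 (19.7%), and the X-linked genes Gpc4 (17.7%) and Cdx4 (24.5%). Of these 8, Sost, Sostdc1, Cer1 and Csnk1a1 have fewer than 20 CpGs in their windows. The starts of Sostdc1, Apc and Csnk1a1 were not annotated and were placed at the CpG-richer end of the gene. Their shores were at 26.4%, 10.6% and 9.17%, below the windows, which may not hold the starts in use.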

How the data were processed

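Whole-genome bisulfite sequencing covered 2 samples of 1 group, and the authors deposited 1 table of counts of methylated and unmethylated reads per strand of each CpG. Its columns name no sample and were taken as the pool of the group. The submitters' processing notes name Bowtie2 2.1.0, Bismark 0.12.5, cutadapt 1.3 and the build mm10 without their roles. The pooling of samples, filters and any removal of duplicate reads were not given in the sources used here. Duplicate reads would make intervals too narrow.

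Both strands were added (21908008 CpGs, 137691322 read counts), and levels with exact Clopper-Pearson 95% intervals were computed with Python 3.11.15, numpy 2.4.6, scipy 1.17.1 and pandas 2.3.3 (figures: matplotlib 3.10.9). The level and call functions were tested on simulated data. Promoters and shores needed 5 CpGs with a read and 20 read counts, and bodies 20 CpGs with a read. All CpGs of the autosomal RefSeq promoter sequences fell on positions of the table. The start was the outermost one in the RefSeq promoter table (GRCm38.p6) for 31 members. For the other 16 (Wnt5a, Wnt7b, Wnt8a, Wnt10a, Fzd2, Fzd3, Fzd6, Fzd8, Dkk3, Dkk4, Sfrp1, Sfrp4, Lrp5, Lrp6, Rspo2 and Rspo3) it was the gene end with more CpGs, a choice that fell on the side of the annotated start in 28 of the 31 annotated members and in 81.2% of 16457 genes, and within 500 bp of it in 26 members and in 72.1% of genes.

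Members and gene lists were chosen with earlier results of these data known. Full values were given for the 3 highest and 3 lowest promoters, shores, bodies and stretches, for members not called low, for Wnt genes next to each other, and for other pathway genes not called low or among the 3 lowest; further members were named after their values were seen. Alternatives were depth minimums, other windows and thresholds, single strands, means of CpG fractions, removal of the deepest CpGs, the CpG-richer end for every member, and 1 CpG per 100 bp and CpG-dense regions without other genes or annotated starts, both added after the data were seen.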

Additional observations from a re-analysis of the deposited data

How the results depend on the processing

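A reversal could be seen only in differences between the medians of CpG-rich members and of CpG-rich genes. Those of shores and bodies kept their sign in every setting. That of the unmethylated stretch fell to 0 bp with bins under 10%, so it was lost there. Counts and single medians were judged only by the size of their shift. The number of low promoters among the 47 stayed between 33 (low under 10%) and 42. It was 36 with the CpG-richer end taken for every member, which moved Wnt2, Wnt5b, Wnt6, Wnt9b, Sfrp2 and Axin2. With windows of 1000 bp on either side the promoter median was 8.48%. With low under 10%, and with 1 CpG per 100 bp, 4 antagonists were low in each case. Shore medians were 13.5% at 500 to 1000 bp, 22.4% at 1000 to 2000 bp, 26.4% with 1 CpG per 100 bp and 36.3% upstream alone, and 8 and 13 shores were low in the last 2 settings. The shore median of CpG-rich members minus that of CpG-rich genes was -16.9 points, and -3.37 at 500 to 1000 bp, -42.6 at 1000 to 2000 bp, -20.4 as a mean of CpG fractions, -24.2 with 1 CpG per 100 bp and -32.3 upstream alone. Bodies from 1000 bp past the start to 1000 bp before the end had a median of 62.9% with 7 low, and lay -17.2 points from CpG-rich genes, compared with -10.3. Whole genes, a setting that also takes in the first 2000 bp past the start, had a median of 46.99% with 10 low and 27 under 50%. With 1 CpG per 100 bp, 0 bodies were low and 5 were under 50%, with fewer bodies measured. The stretch median was 800 bp with bins under 10% and 2400 bp with bins under 30%, and its difference from CpG-rich genes was 0, 1200 and, with 500 bp bins, 1000 bp, compared with 600. The cause of these shifts was not tested. Values of single genes moved by less than their intervals in 350 of 467 promoter, 123 of 281 shore and 127 of 257 body comparisons.

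No paired analysis was possible because the samples share 1 table without sample columns. Depth limits the members with few CpGs, above all Rspo2 (48 read counts). The median of 6 reads per CpG supports levels of regions and not of single CpGs. Without replicates, differences between genes were set only against counting error, and a start placed by CpG content may not be the one in use.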
